A study of Mus musculus with 2 samples.

Results

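Cd74-high microglia and border macrophages are the barcodes of this mouse hippocampus series that carried many transcripts of Cd74, the invariant chain that escorts MHC class II molecules, together with many transcripts of complement component C1q. Barcodes were chosen by these measured counts, so their levels of Cd74 and C1q are a description and no finding. A barcode was taken if it had at least 10 unique molecular identifiers (UMIs) of Cd74 and at least 10 of C1qa, C1qb and C1qc summed. It also had to have fewer than 3 of Cd79a and Cd79b (B cell receptor), fewer than 10 of Mog, Mag, Ermn, Opalin and Cldn11 (oligodendrocytes), and fewer than 8 of Folr1, Kcnj13, Sostdc1, Calml4, Cox8b and Kl (choroid plexus). That left 78 of 10015 barcodes. They comprised 54 of the 4572 barcodes of the GlaKO library and 24 of the 5443 barcodes of the wt library. Within them, 35 barcodes with fewer than 3 UMIs of P2ry12 and Gpr34 summed (P2ry12/Gpr34-low) were contrasted with 43 that had at least 3 (P2ry12/Gpr34-high). P2ry12 is a purinergic receptor and Gpr34 a lysophosphatidylserine receptor, and both are markers of microglia.

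The series compared GlaKO mice with wt littermates, all 57 weeks old, by droplet 3' single-cell RNA sequencing of dissociated hippocampus. GlaKO mice are a model of Fabry disease in which Gla, the gene of the lysosomal hydrolase alpha-galactosidase A, is disrupted, and wt littermates carry the intact gene. Animals of both genotypes were anesthetised and perfused with saline before dissociation, and the cell suspension was sorted with the dye 7-AAD. There was 1 library per genotype, the sources used here do not state the number, sex or strain of the animals, and no test between genotypes was possible. Every difference below is therefore one between 2 libraries, and the 95% intervals cover counting error only. Gla itself had 222 UMIs in the GlaKO library (7.42 CPM, its UMIs scaled to the total of the library; 6.48 to 8.46) and 397 in the wt library (12.4 CPM, 11.2 to 13.7). In the Cd74-high barcodes it had 1 UMI in the GlaKO library and 3 in the wt library. A 3' count reads the end of a transcript and does not check a change elsewhere in the gene, and the altered stretch of the Gla allele is unknown from the sources used here. The libraries shared 6 barcodes, none of them among the Cd74-high barcodes.

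Microglia are the macrophages of the brain parenchyma. Border macrophages live in the meninges, the perivascular spaces and the choroid plexus, and are marked by genes such as Mrc1 (the mannose receptor), Pf4 (a chemokine) and Ms4a7. MHC class II molecules display peptides from engulfed proteins to CD4+ T cells. Their alpha and beta chains pair in the endoplasmic reticulum, Cd74 fills the peptide groove until proteases such as cathepsin S (Ctss) degrade it in an endosome, and the H2-DM dimer then exchanges the remaining fragment for peptide. Resting microglia are known for low class II levels, border macrophages include a class II-rich subset, and interferon signalling is a known inducer of the whole pathway.

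The Cd74-high barcodes were a larger share of the GlaKO library than of the wt library. They made up 1.18% of GlaKO barcodes (95% Clopper-Pearson interval, 0.888 to 1.54) and 0.441% of wt barcodes (0.283 to 0.655). The P2ry12/Gpr34-low barcodes contributed little to this gap, with 18 of 4572 in GlaKO (0.394%, 0.233 to 0.622) and 17 of 5443 in wt (0.312%, 0.182 to 0.500). P2ry12/Gpr34-high barcodes were 36 of 4572 in GlaKO (0.787%, 0.552 to 1.09) and 7 of 5443 in wt (0.129%, 0.0517 to 0.265). The Cd74-high barcodes had a median of 8210.5 UMIs in GlaKO (1952 to 20630) and 5339 in wt (1925 to 15548), and the fixed minimum of 10 UMIs is easier to reach in a deeper barcode. Across all barcodes the medians were 6101 UMIs in GlaKO and 5054 in wt.

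The same gap showed when only microglia-marked barcodes were counted. Of all barcodes that met the C1q minimum and the upper limits and had at least 3 UMIs of P2ry12 and Gpr34, 36 of 728 in GlaKO had at least 10 Cd74 UMIs (4.95%, 3.49 to 6.78), against 7 of 445 in wt (1.57%, 0.635 to 3.21). With barcodes that held any UMI of Mrc1, Pf4 or Ms4a7 left out, the share was 34 of 718 in GlaKO (4.74%, 3.30 to 6.55) and 2 of 434 in wt (0.461%, 0.0559 to 1.65). After each barcode was thinned to 4000 UMIs, with the shallower ones left out, the first of these shares was 23 of 564 in GlaKO (4.08%, 2.60 to 6.06) and 2 of 296 in wt (0.676%, 0.0819 to 2.42). In all 3 counts the GlaKO interval lay above the wt interval. The filter on Mrc1, Pf4 and Ms4a7 and the thinning to 4000 UMIs were added after the data had been seen. Among barcodes with fewer than 3 UMIs of P2ry12 and Gpr34, those with at least 10 Cd74 UMIs were 18 of 54 in GlaKO (33.3%, 21.1 to 47.5) and 17 of 39 in wt (43.6%, 27.8 to 60.4), and these intervals overlapped.

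**Figure D1:**
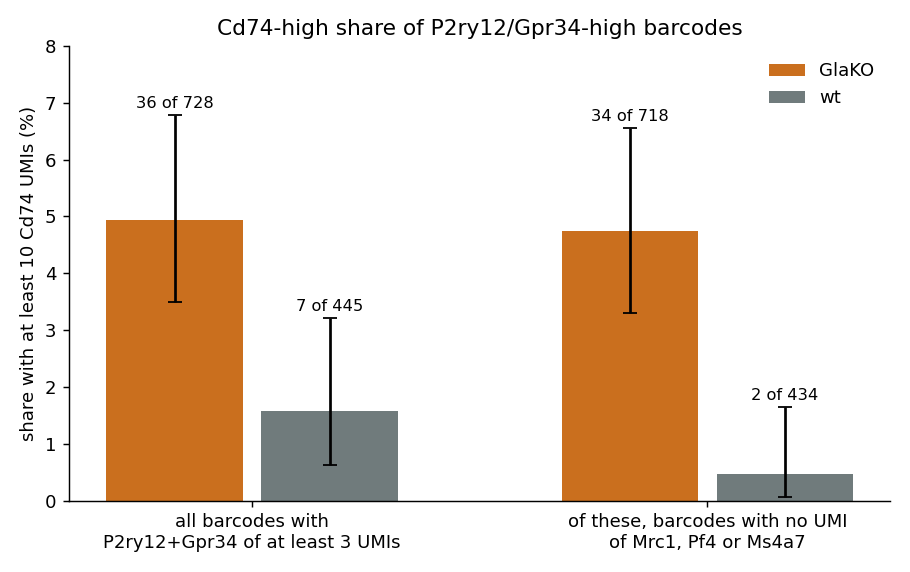
Share of P2ry12/Gpr34-high barcodes that had at least 10 Cd74 UMIs, in percent, for GlaKO and wt, with all barcodes (left pair) and without those holding a UMI of Mrc1, Pf4 or Ms4a7 (right pair); bars are 95% Clopper-Pearson intervals and cover counting error only. The GlaKO share was 4.95% and 4.74%, and the wt share 1.57% and 0.461%.

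The label fits the GlaKO P2ry12/Gpr34-high barcodes, but the wt ones only in part. UMIs of 20 homeostatic microglia genes (Tmem119, Siglech, Cx3cr1, Sall1 and others) were set against UMIs of 24 border macrophage genes, 15 of which were listed in each library, per 1000 UMIs of each barcode. In GlaKO, 34 of the 36 P2ry12/Gpr34-high barcodes had no UMI of Mrc1, Pf4 or Ms4a7, and their homeostatic content ran from 11.8 to 40.3 with a median of 25.3. Of these 34, 29 were at or above 16.1, the value that marks the lowest 5% of Cd74-low P2ry12/Gpr34-high barcodes in that library. The other 2 held a median of 17 UMIs of these 3 genes, and their homeostatic content was 4.30 and 4.89. In wt, only 2 of the 7 P2ry12/Gpr34-high barcodes lacked Mrc1, Pf4 and Ms4a7, with a homeostatic content of 12.03 and 28.2. The other 5 wt barcodes held these markers, with a homeostatic content of 3.36 to 8.94 and a border content of 3.36 to 27.7. They thus carried P2ry12 or Gpr34 reads beside border macrophage markers. The one with the lowest border content held 1 UMI of Pf4 and 2 of Ms4a7. Border content was 0 to 2.93 in the 34 GlaKO barcodes without these markers. In the 5 wt barcodes P2ry12 and Gpr34 summed to 3, 3, 4, 4 and 5 UMIs, close to the limit of 3.

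The P2ry12/Gpr34-low barcodes were of mixed kinds in GlaKO, and in wt all but 1 held a border marker UMI. A UMI of Mrc1, Pf4 or Ms4a7 was present in 11 of 18 GlaKO barcodes (61.1%, 35.7 to 82.7) and in 16 of 17 wt barcodes (94.1%, 71.3 to 99.9). In oligodendrocyte barcodes, which should lack these genes, 3 of 1384 in GlaKO (0.217%) and 2 of 866 in wt (0.231%) had one. Median depths were 6265 UMIs in the GlaKO and 4731 in the wt P2ry12/Gpr34-low barcodes, and 6736 and 5813 in the GlaKO and wt oligodendrocyte barcodes. Homeostatic content was 1.45 to 28.5 in the GlaKO barcodes (median 4.87) and 2.25 to 7.94 in the wt barcodes (median 4.33). Of the 7 GlaKO barcodes without border markers, 1 had a homeostatic content of 28.5 at a depth of 2455 UMIs, within the range of the microglia-marked barcodes. Another had 14.3 at 6702 UMIs.

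**Figure D2:**
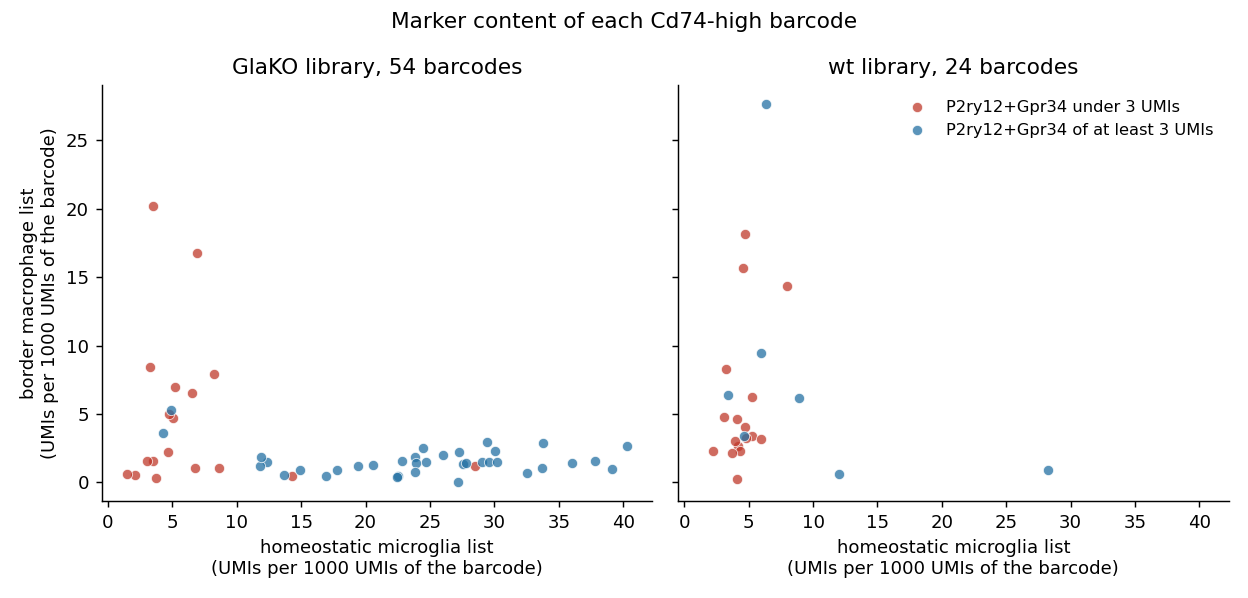
Each point is 1 Cd74-high barcode, placed by its UMIs of the homeostatic microglia list (horizontal axis) and of the border macrophage list (vertical axis), both per 1000 UMIs of the barcode, in the GlaKO library (left) and the wt library (right). Most GlaKO P2ry12/Gpr34-high barcodes lie to the right at 11.8 to 40.3, whereas 5 of the 7 wt ones lie among the P2ry12/Gpr34-low barcodes.

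Another 4 GlaKO P2ry12/Gpr34-low barcodes, singled out after their values were seen, combined high Cd74 counts with genes of the monocyte list and little Apoe. Apoe is the lipid carrier that border macrophages and reactive microglia make. They had 328, 467, 502 and 585 Cd74 UMIs, the last 3 of these being the highest of all 78 barcodes. In the same order they held 3, 0, 1 and 1 Apoe UMIs, whereas the other 14 barcodes of that set had 0 to 663 and the 17 wt ones 46 to 1667. Ccr2, the chemokine receptor of classical monocytes, had 3, 6, 4 and 3 UMIs in them. It was not particular to them, with 15 UMIs in 1 GlaKO P2ry12/Gpr34-high barcode and 4 in 1 wt barcode. Their monocyte list sums were 20, 39, 100 and 12 UMIs, against 0 to 11 in the other 14 GlaKO barcodes and 0 to 4 in the 17 wt P2ry12/Gpr34-low ones, while 1 wt P2ry12/Gpr34-high barcode had 40. The barcode with 100 held 29 UMIs of Plac8, 43 of S100a6 and 2 of Ly6c2, and it was the deepest of the 78 at 20630 UMIs. In the barcode with 12, the sum was made up of 7 UMIs of Napsa, 3 of Ccr2, 1 of Gsr and 1 of Itgal. Plac8, S100a4, Napsa, Itgal, Vcan, Fn1 and Ly6c2 were at 0 in all 24 wt barcodes. All 4 still met the C1q minimum with 77, 72, 53 and 41 UMIs.

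Markers of lymphocytes, neutrophils and endothelium were sparse, and oligodendrocyte transcripts were found in nearly every barcode. The oligodendrocyte marker list had at least 3 UMIs in 51 of 54 GlaKO and 22 of 24 wt barcodes, with a median of 9 UMIs in GlaKO (0 to 27) and 6 in wt (0 to 32). Its summed level was 1168 CPM in GlaKO and 1307 CPM in wt, against 60053 CPM and 65980 CPM in the oligodendrocyte barcodes of GlaKO and wt. The astrocyte list held 0 to 13 UMIs per barcode in GlaKO and 0 to 3 in wt. All Cd3 chains, Trbc1, Trbc2, Cd8a and Nkg7 were at 0 in the Cd74-high barcodes of both libraries, and the T cell list held 0 to 8 UMIs per barcode in GlaKO and 0 to 1 in wt. Igkc, Iglc2, Ebf1 and Jchain were at 0 in both, as were S100a8 and S100a9 of neutrophils and Cldn5 of endothelium. Ccr7 of migratory dendritic cells was at 0, while the dendritic cell list as a whole was filled by Cst3, which microglia also express. The GlaKO barcode with 585 Cd74 UMIs stood apart, with 540 UMIs of Cst3 and 3 of Klrd1, both on that list. Its homeostatic content was only 3.76. Its dendritic cell list sum was 550 UMIs, against a median of 44.5 in the GlaKO P2ry12/Gpr34-low barcodes. The kind of this cell was not tested. The neuron list held up to 3 UMIs per barcode in GlaKO and up to 38 in wt. Scrublet marked 1 Cd74-high barcode as a doublet in each library. It marked 0.478% of all wt barcodes and cannot be said to have worked there. Among the 4% of barcodes with the highest Scrublet scores were 7 Cd74-high barcodes in GlaKO and 3 in wt, 6 and 2 of which were P2ry12/Gpr34-low.

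Few barcodes lay near the Cd74 minimum, but most wt P2ry12/Gpr34-high barcodes lay near the P2ry12 and Gpr34 limit. Among barcodes that met every other condition, Cd74 was 10 or 11 in 2 GlaKO and 1 wt barcodes and 8 or 9 in 4 GlaKO and 1 wt barcodes. P2ry12 and Gpr34 summed to 3 in 3 GlaKO and 2 wt Cd74-high barcodes, and to 2 in 6 GlaKO and 4 wt barcodes. A sum of 4 or 5 was found in 4 GlaKO and 3 wt barcodes, and with a minimum of 5 the P2ry12/Gpr34-high share of the wt Cd74-high barcodes was 12.5%, against 29.2%. The upper limits on B cell, oligodendrocyte and choroid plexus genes removed 2 GlaKO and 1 wt barcodes.

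Cd74 varied together with the class II chains from barcode to barcode. Cd74 itself, which chose the barcodes, ran from 19 to 585 UMIs with a median of 218.5 in the GlaKO P2ry12/Gpr34-low barcodes and from 22 to 341 with a median of 179 in the wt ones. In P2ry12/Gpr34-high barcodes it ran from 10 to 402 with a median of 46 in GlaKO, and was 10, 15, 17, 26, 29, 73 and 282 in the 7 wt barcodes. The class II list (H2-Aa, H2-Ab1, H2-Eb1, H2-DMa, H2-DMb1 and others) summed to 4 to 906 UMIs per barcode in GlaKO (median 44.5) and 6 to 421 in wt (median 115). Over barcodes, the Spearman correlation of Cd74 CPM with class II CPM was 0.952 in GlaKO (n = 54) and 0.923 in wt (n = 24). These points share a library and a depth each, and the values are a description. Within the GlaKO P2ry12/Gpr34-high barcodes, Cd74 CPM had a correlation of 0.931 with class II and of 0.0216 with homeostatic content (n = 36). In the other sets the correlation with homeostatic content was negative, at -0.587 in the GlaKO P2ry12/Gpr34-low (n = 18), -0.135 in the wt low (n = 17) and -0.607 in the wt high barcodes (n = 7). Over all Cd74-high barcodes it was -0.512 in GlaKO and -0.399 in wt.

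**Figure D3:**
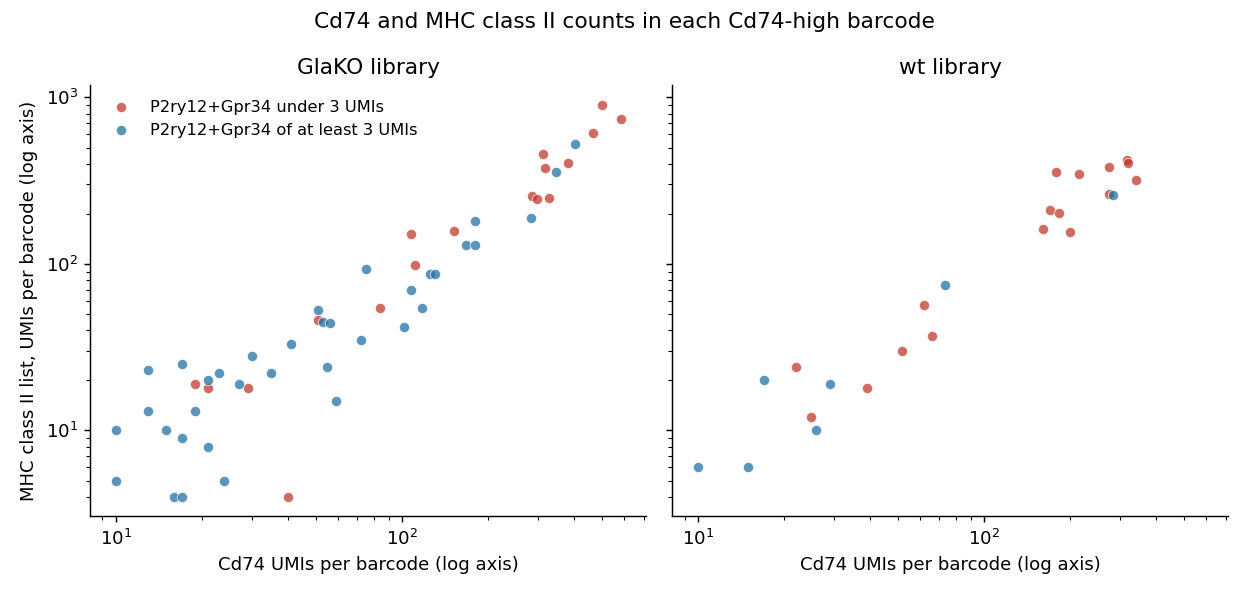
Cd74 UMIs (horizontal, log axis) and summed class II UMIs (vertical, log axis) of each Cd74-high barcode in the GlaKO library (left) and the wt library (right). The counts climb together from 10 to 585 Cd74 UMIs in GlaKO and from 10 to 341 in wt, and the barcodes above 100 Cd74 UMIs are mostly P2ry12/Gpr34-low in wt and of both kinds in GlaKO.

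Class II promoters carry the X and Y boxes, which are known to be bound by RFX and NF-Y before the coactivator CIITA is recruited, and the windows below are printed because these genes moved together with Cd74. The letters searched, on both strands of the RefSeq promoter table (250 bases before to 50 after each gene start, build GRCm38.p6), were GNAACNNNTGA for the X box and TGATTGG for the Y box, which cannot overlap in the pairs counted. Capitals mark the X box and then the Y box, and H2-Aa matched only the Y box letters.
H2-Eb1, chr17:34305768-34305820, plus strand: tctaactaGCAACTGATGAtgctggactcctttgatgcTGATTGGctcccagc
H2-DMb1, chr17:34153089-34153142, plus strand: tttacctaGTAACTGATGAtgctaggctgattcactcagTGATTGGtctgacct
H2-Aa, chr17:34287859-34287913, minus strand: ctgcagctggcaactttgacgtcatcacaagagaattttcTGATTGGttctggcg

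In these windows the X box lay 19 bases before the Y box in H2-Eb1 and 20 bases before it in H2-DMb1. Of the 32851 promoters of the table, 3.17% held the X box letters, 7.82% the Y box letters, and 5 promoters an X box followed by a Y box within 30 bases on 1 strand. Of the 10 class II genes listed, 8 had a promoter in the table, 7 of these held the Y box letters and 3 (H2-Eb1, H2-DMb1 and H2-Ob) held the pair. Of 20 MHC class I genes, 17 had a promoter, 9 held the Y box letters in either orientation and none the X box letters. A match of letters is a description and does not show binding.

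P2ry12/Gpr34-low barcodes carried more class II RNA than P2ry12/Gpr34-high barcodes, in both libraries. H2-Eb1, the beta chain of I-E, was at 1525 UMIs in the low and 688 in the high GlaKO barcodes, and at 1064 and 133 in the wt ones, with log2 ratios of 2.39 in GlaKO and 2.37 in wt. The I-A chains H2-Aa (2.31 and 2.91) and H2-Ab1 (2.28 and 2.35) and the peptide exchanger H2-DMb1 (1.84 and 1.90) were higher by similar factors in GlaKO and wt. All 4 class II genes compared were at least 2-fold higher in both libraries. Over all 197 genes compared (at least 100 summed UMIs in each library), 8 were (4.06%) and 11 were at least 2-fold lower in both (5.58%). The remaining wt high counts are thin: 1 of the 7 wt barcodes held 75.2% of the H2-Eb1 UMIs there. Over low barcodes, no barcode held more than 20.9% of them in GlaKO and 12.5% in wt.

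Besides class II, 2 further genes of the fixed lists were higher in the low barcodes of both libraries by at least 2-fold, namely lysozyme Lyz2 (log2 ratio 2.59 in GlaKO, 1.90 in wt) and Apoe (1.93 and 1.12). Tmem176a, a membrane protein gene of antigen-presenting myeloid cells, was higher by 1.07 and 1.52. Il1b, the cytokine interleukin 1 beta, was at 2.55 in GlaKO and 0.57 in wt, and the iron store gene Fth1 at 0.66 and 0.56, under the 2-fold limit in wt or in both. The lower genes included homeostatic ones. The lipid receptor gene Trem2 was lower by a log2 ratio of -1.68 in GlaKO and -1.31 in wt, and cystatin Cst3 by -2.18 and -1.67. The growth factor receptor Csf1r was at -1.47 in GlaKO and -0.30 in wt, and did not reach 2-fold in wt. Of the 3 homeostatic genes compared, 2 were past the fold. In wt the lower ratios rested on few barcodes. With a Cd74 minimum of 20, which leaves out 3 of the 7 wt P2ry12/Gpr34-high barcodes, those without border markers among them, the wt ratio was 0.37 for Cst3 and -0.78 for Trem2, and the wt homeostatic median was 0.41. No gene was then at least 2-fold lower in both libraries, against 11, and 7 were higher, among them the 4 class II genes but not Apoe, at 0.30 in wt. TMM scaling would raise these log2 ratios by 0.08 in GlaKO and 0.25 in wt.

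Cd74-high microglia-marked barcodes were then set against Cd74-low ones, to see what they shared beyond the gene that chose them. All had at least 3 UMIs of P2ry12 and Gpr34 and met the other limits, with at least 10 Cd74 UMIs in 36 GlaKO and 7 wt barcodes and fewer in 692 GlaKO and 438 wt barcodes. Their median depths were 8555.5 UMIs in the Cd74-high and 6435.5 in the Cd74-low GlaKO barcodes, and 8631 and 5368 in the wt ones. Since only 2 of the 7 wt barcodes lacked border markers, the GlaKO values describe microglia more closely, and wt values are given beside them. Over 3856 genes compared, 1.66% were at least 1.5-fold higher in both libraries and 5.71% at least 1.5-fold lower. Of the 10 lowest genes of the comparison, 9 had 1 UMI and 1 had 3 in the wt Cd74-high barcodes, and they are not named. TMM scaling would move the log2 ratios by 0.14 in GlaKO and -0.19 in wt.

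The class II chains were concentrated in Cd74-high barcodes. H2-Eb1 had 688 UMIs in the 36 Cd74-high GlaKO barcodes and 23 in the 692 Cd74-low ones, a log2 ratio of 8.78 (8.18 to 9.45), and 133 and 5 in wt (10.16). H2-Ab1 had 757 and 72 UMIs in GlaKO (7.27, 6.92 to 7.64) and 144 and 34 in wt (7.51). The 2 border-marked GlaKO Cd74-high barcodes held 114 and 151 of the H2-Eb1 UMIs and 105 and 175 of the H2-Ab1 UMIs. In GlaKO barcodes without border markers, H2-Eb1 was at 1940 CPM at 20 or more Cd74 UMIs and 1.46 CPM where Cd74 was 0. H2-Aa was found in 28 of 36 Cd74-high and 13 of 692 Cd74-low GlaKO barcodes, and in oligodendrocyte barcodes 1.37% held a UMI in GlaKO and 0.462% in wt, which is near the 1.88% of Cd74-low GlaKO barcodes. The H2-DM genes differed by less, since Cd74-low barcodes had them too. H2-DMa was at 1.40 (1.15 to 1.65) and H2-DMb1 at 1.93 (1.62 to 2.23) in GlaKO, and at 0.60 and 1.37 in wt. Without barcodes that held border markers, H2-DMa was at 1.29 in GlaKO and -0.91 in wt, and H2-DMb1 at 1.70 and 0.14, so the direction of H2-DMa turned in wt. The class II median over these 2 genes, the ones still compared, was 1.49 in GlaKO and -0.39 in wt. H2-Eb1 had 0 UMIs and H2-Ab1 had 3 in the 2 wt Cd74-high barcodes left, so nearly all wt UMIs of these chains were in border-marked barcodes. Ctss, the protease that trims Cd74, was higher by 0.45 (0.39 to 0.51) in GlaKO and at -0.21 in wt, under the 1.5-fold limit, and none of the 6 genes of class II processing and costimulation compared was past it in both libraries.

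Some MHC class I genes were higher as well. H2-D1, a classical class I heavy chain, had 948 UMIs in Cd74-high and 4144 in Cd74-low GlaKO barcodes, a log2 ratio of 1.75 (1.65 to 1.85), and 124 and 2075 in wt (1.36). H2-K1, the other classical heavy chain, was higher by 1.18 (1.04 to 1.31) in GlaKO and 1.41 in wt, and was found in all 36 GlaKO Cd74-high barcodes. No barcode held more than 9.28% of the H2-D1 UMIs or 5.65% of the H2-K1 UMIs of that set. H2-M3, which presents formylated peptides, was at 1.97 and 0.77, and Psmb9, an immunoproteasome subunit, at 1.21 and 0.71, with wt intervals that included 0 (-0.88 to 2.03 and -0.43 to 1.66). These 4 of the 13 class I genes compared were past 1.5-fold in both libraries and none was lower. The median of the list was 0.81 in GlaKO and 0.45 in wt, against -0.14 and -0.24 over all genes. B2m, the light chain, was at 0.81 and 0.45, Psmb8 at 0.82 and 0.49, and H2-T23 at 1.26 and 0.11. Without barcodes that held border markers, 2 of the 13 genes were past the fold in both libraries, and the list median was 0.81 in GlaKO and -0.22 in wt, where 2 Cd74-high barcodes were left. H2-D1 was then at 1.78 in GlaKO and 1.10 in wt, and H2-K1 at 1.23 and 1.54. In wt H2-M3 and Psmb9 were at -0.38 and -0.24, the opposite direction.

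In GlaKO, H2-D1 was higher at each step of the Cd74 count, also below the minimum of 10. In GlaKO P2ry12/Gpr34-high barcodes without border markers it was at 788 CPM where Cd74 was 0 (n = 541), 1246 CPM at 1 to 4 Cd74 UMIs (n = 131), 2038 CPM at 5 to 9 (n = 12), 2190 CPM at 10 to 19 (n = 10) and 3529 CPM at 20 or more (n = 24). In wt it was at 716 CPM (n = 360), 1389 CPM (n = 68), 1344 CPM (n = 4) and 1842 CPM (n = 2) over the same ranges, with no barcode at 20 or more. H2-K1 went from 630 CPM at 0 to 1930 CPM at 20 or more in GlaKO, though 10 to 19 (1055 CPM) lay below 5 to 9 (1279 CPM). Bins of 5 to 9 and 10 to 19 hold few barcodes, and without them the order of the GlaKO values is unchanged. Median depth was 6371, 6732, 7941.5, 8996.5 and 8428 UMIs over the 5 GlaKO ranges, and its part in these values was not tested. Fcrls ran the other way between 0 (1387 CPM in GlaKO, 1434 CPM in wt) and 10 to 19 Cd74 UMIs (516 CPM in GlaKO, 368 CPM in wt), and was 869 CPM at 20 or more in GlaKO.

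**Figure D4:**
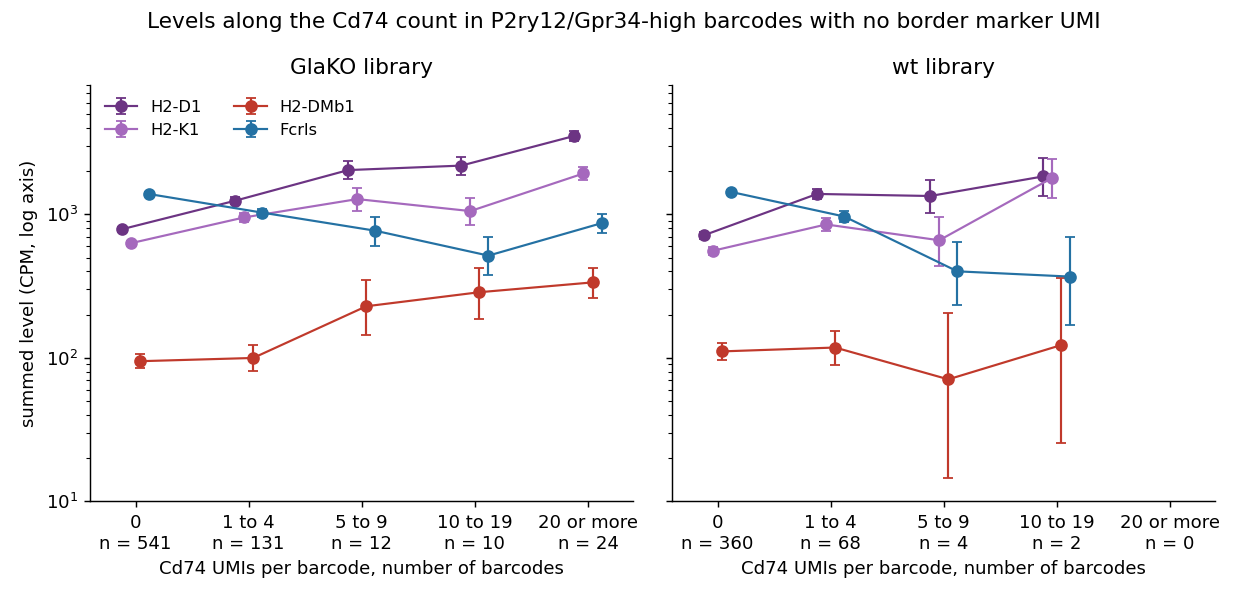
Summed levels (CPM, log axis) of H2-D1, H2-K1, H2-DMb1 and Fcrls in P2ry12/Gpr34-high barcodes without a UMI of Mrc1, Pf4 or Ms4a7, by the Cd74 UMIs of the barcode, in GlaKO (left) and wt (right); bars are 95% Poisson intervals and n is the number of barcodes. H2-D1 climbs from 788 to 3529 CPM in GlaKO, and the wt ranges of 5 to 9 and 10 to 19 hold only 4 and 2 barcodes.

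Interferon-stimulated genes were mostly higher in Cd74-high barcodes, with UMIs concentrated in some of them. Of 8 compared, 7 were past 1.5-fold in both libraries, and the median log2 ratio was 1.14 in GlaKO and 2.24 in wt. Ifi27l2a had 75 UMIs in Cd74-high and 203 in Cd74-low GlaKO barcodes (2.44, 2.04 to 2.83), in 36.1% and 11.6% of them, and 1 barcode held 30.7% of the 75. Bst2, a membrane protein that tethers viruses, was at 0.82 (0.48 to 1.15) in GlaKO and 1.58 in wt. Irf1, an inducer of class II transcription, was at 0.60 (0.32 to 0.86) in GlaKO but at -0.92 in wt, where it rested on 7 UMIs. Without barcodes that held border markers, 5 of 7 genes compared were past the fold in both libraries, against 69 of 3739 genes over all. The 2 wt Cd74-high barcodes left held only 15 and 4 UMIs of the list. Ifi27l2a had 0 UMIs in them and entered as 3, so the wt side of this count is weak.

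Genes of the disease-associated microglia state divided. Of 16 compared, 8 were past 1.5-fold in both libraries and none was lower, with a median of 0.65 in GlaKO and 0.92 in wt. Lyz2 (1.55 in GlaKO, 3.19 in wt), Apoe (0.98 and 3.15), Fth1 (0.86 and 1.04) and the secreted glycoprotein gene Lgals3bp (1.09 and 0.79) were among them. Apoe was uneven: 1 of the 36 GlaKO barcodes held 46.6% of its 2235 UMIs. The larger wt ratios of Lyz2 and Apoe came with the border markers in 5 of the 7 wt barcodes, and without marked barcodes Lyz2 was at 0.97 in GlaKO and 0.93 in wt, and Apoe at 0.77 and 0.22. Lgals3bp was then at 0.17 in wt, and 7 of the 16 genes were past the fold in both libraries, against 69 of 3739 genes over all. The wt side of this count rested on 2 Cd74-high barcodes, which held 920 and 210 UMIs of the list. Among chemokines and cytokines, 8 of 16 were higher past the fold, including Il1b (1.91 and 4.42), which 11 of 36 GlaKO barcodes held. The cytokine gene Il18 was lower, at -0.88 and -0.79, with 2 UMIs in the wt Cd74-high barcodes.

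Homeostatic genes lay closer to 0 in GlaKO than in wt. None of the 20 compared was at least 1.5-fold higher in both libraries and 2 were lower, against 1.66% and 5.71% of all 3856 genes. The 2 lower genes were Fcrls, an Fc receptor-like gene of microglia, at -0.84 (-1.04 to -0.65) in GlaKO and -0.67 in wt, and Slc2a5, a sugar transporter gene, at -0.65 (-1.08 to -0.25) and -2.18. The fractalkine receptor gene Cx3cr1 was at -0.42 and -1.19. The median of the list was -0.24 in GlaKO and -1.38 in wt, against -0.14 and -0.24 over all genes. Without barcodes that held border markers the list median was -0.18 in GlaKO and -0.75 in wt, against -0.11 and 0.16 over all genes. Then 1 of the 20 genes was past the fold in both libraries, since Slc2a5 was at -0.57 in GlaKO. Complement and Fc receptor genes (9 compared) and lysosomal enzymes (29 compared) had medians of 0.17 and 0.000474 in GlaKO, with no receptor gene and 1 enzyme gene past the fold in both libraries. Lysosomal enzymes were compared because Gla encodes one, and their median in wt was -0.28, against 0.41 without border-marked barcodes, where no enzyme gene was past the fold in both libraries.

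**Figure D5:**
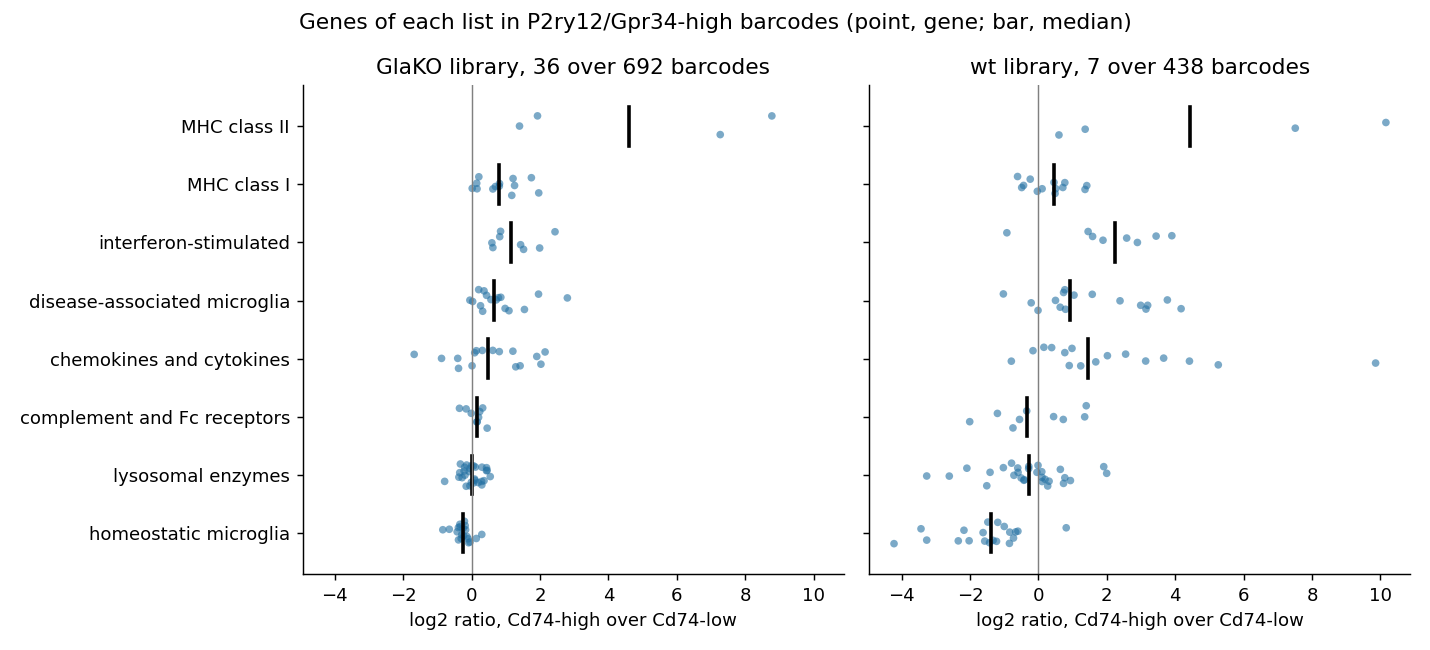
Log2 ratio of Cd74-high over Cd74-low P2ry12/Gpr34-high barcodes for each gene compared of 8 lists (points, spread at random on the vertical axis within a list) with the list median (bar), in GlaKO (left, 36 over 692 barcodes) and wt (right, 7 over 438 barcodes). Class II, class I and interferon-stimulated medians were 4.601, 0.81 and 1.14 in GlaKO, and the homeostatic median -0.24.

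Between genotypes, over all Cd74-high barcodes pooled, 180 of 786 genes were at least 1.5-fold higher in GlaKO and 77 lower, 13 homeostatic and 7 border macrophage genes among them. The highest GlaKO over wt ratios of the genes named by the fixed rule included those of microglial genes: Crybb1 with 205 UMIs in GlaKO and 2 in wt (log2 ratio 5.06, 3.18 to 8.11), the adhesion ligand Selplg with 613 and 21 (3.24, 2.62 to 3.95), Tmem119 with 309 and 12 (3.06, 2.24 to 4.03), Sparc with 831 and 53 (2.35, 1.95 to 2.78) and the purinergic receptor P2ry13 with 148 and 10 (2.26, 1.34 to 3.35). Smad7, an inhibitor of TGF-beta signalling, was at 3.30 (2.15 to 4.76) and the glucocorticoid-responsive kinase gene Sgk1 at 2.69 (1.94 to 3.54). Of 16 homeostatic genes compared, 13 were at least 1.5-fold higher, against 22.9% of all 786 genes. This count cannot separate genotype from the mix of barcodes, since 36 of 54 GlaKO but 7 of 24 wt barcodes were P2ry12/Gpr34-high. Genes also entered by UMIs summed over both libraries, of which GlaKO held 438450 and wt 142262, so genes high in GlaKO entered more easily. The lowest ratios included the interferon-inducible Ifi207 (-2.51) and Ifitm2 (-2.00), Apoe with 5845 and 7497 UMIs (-1.98, -2.03 to -1.93), Lyz2 (-1.72), the membrane gene Ms4a6c (-1.85), the endotoxin co-receptor Cd14 (-1.91) and the metal-binding Mt1 (-1.82). Of 9 border macrophage genes compared, 7 were at least 1.5-fold lower, against 9.8% of all genes. The border macrophage count cannot be read apart from the mix of barcodes either.

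The 2 libraries differed in how many of these barcodes held border markers: 13 of 54 GlaKO barcodes (24.1%, 13.5 to 37.6) and 21 of 24 wt barcodes (87.5%, 67.6 to 97.3) had a UMI of Mrc1, Pf4 or Ms4a7. Among those 13 GlaKO and 21 wt barcodes alone, 27 of 263 genes were higher and 22 lower by at least 1.5-fold, and the homeostatic median was -0.14 (3 genes) where it had been 1.11 (16 genes). The class II median was 0.36 there, with none of 5 genes past 1.5-fold, and -0.73 over all Cd74-high barcodes. P2ry13 was at -0.31 in the marked barcodes. Between the P2ry12/Gpr34-high barcodes of GlaKO and wt, where 2 of 36 GlaKO and 5 of 7 wt barcodes held border markers, 27.8% of 510 genes were higher and 13.1% lower, and of the genes named by the rule Crybb1 (4.19), Dusp6 (3.78) and Smad7 (3.37) were highest and Mt1 lowest (-2.89). Selplg was at 3.33 and Tmem119 at 2.93. The homeostatic median was 0.86 over 16 genes, and TMM scaling would raise the ratios by 0.26.

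In the P2ry12/Gpr34-low barcodes, the set most alike in number, summed class II levels lay close together in the 2 libraries, over barcodes of unlike kinds. H2-Aa was at 10764 CPM in GlaKO (10208 to 11343) and 11845 CPM in wt (11131 to 12593), a log2 ratio of -0.14. H2-Ab1 (-0.14), H2-Eb1 (-0.07), H2-DMa (0.15) and H2-DMb1 (0.31) were likewise under the 1.5-fold limit, and the list median was -0.07 over 5 genes. A border marker UMI was present in 11 of 18 GlaKO and 16 of 17 wt barcodes. The 4 GlaKO barcodes singled out above by Cd74, Apoe and the monocyte list are of untested kinds. In the order given there they held 71, 182, 232 and 189 H2-Aa UMIs, against a median of 62 in the GlaKO set. They held 82, 194, 319 and 209 H2-Eb1 UMIs, against a median of 60.5. These sums therefore do not compare border macrophages alone. Of 279 genes compared, 21.1% were at least 1.5-fold higher in GlaKO and 13.3% lower, and the median of all was 0.21. Apoe had 3610 UMIs in GlaKO and 5787 in wt (-1.27). The same 4 GlaKO barcodes, singled out in part by their little Apoe, held 3, 0, 1 and 1 of the GlaKO UMIs.

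The higher genes of these barcodes included the ribosomal protein gene Rpl41 with 451 UMIs in GlaKO and 121 in wt (1.31, 1.02 to 1.61), the NADPH oxidase subunit gene Cyba (0.97, 0.56 to 1.40), the antiproliferative gene Btg1 (0.86, 0.49 to 1.24) and the protease gene Ctsz (0.81, 0.36 to 1.27). The lower genes included Cd14 with 304 UMIs in GlaKO and 534 in wt (-1.40, -1.61 to -1.20), Lyz2 (-0.94), the inhibitor Nfkbiz of NF-kB signalling (-1.02), the maturation marker Cd83 (-0.90) and the AP-1 transcription factor genes Fosb (-1.11) and Jund (-0.94). Immediate-early genes, which respond to dissociation as well as to stimuli, were lower by at least 1.5-fold for 8 of 19 genes and higher for 1, with a median of -0.55. Among chemokines and cytokines 6 of 12 were lower and 2 higher (median -0.56). MHC class I genes had 1 of 5 higher (median 0.35), and lysosomal enzymes 2 of 8 higher (median 0.01). Of all 279 genes compared here, 21.1% were higher and 13.3% lower, so the class I and lysosomal counts lay near the share of all genes. In the barcodes with a border marker UMI, 2 of the 19 immediate-early genes were lower and 1 higher (median -0.39). Of all 263 genes compared there, 22 were lower and 27 higher. Cd14 was at -0.78 and Btg1 at 1.30 in those barcodes.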

How the data were processed

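The deposited files hold raw counts, 1 whole number of UMIs per gene and barcode, for 1 GlaKO and 1 wt library. Per the labels' protocols, a load of 10000 cells was put on the droplet chip for each library. Cell Ranger 6.0.1, Seurat 4, R 4.1.3 and the build mm10 appear in the submitters' processing notes. The sources used here do not state how the authors filtered barcodes or genes before deposit. Depth was 29914106 UMIs (GlaKO) and 31929688 UMIs (wt). The 12744 genes listed in both libraries were compared.

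UMIs were summed per set and divided by the set total. Ratios have exact conditional 95% intervals, levels exact Poisson and shares exact Clopper-Pearson intervals. UMIs of a barcode are not independent cells, so true errors are wider. Genes needed 100 summed UMIs, a count of 0 entered as 3, and "past the fold" means 1.5-fold (genotype, Cd74) or 2-fold in both libraries (P2ry12/Gpr34). Named genes were the 10 highest and 10 lowest with UMIs in at least 10% of barcodes and no barcode above 25% of the UMIs, and members of the lists. No p-value was computed, and UMI counts were not modelled. No doublets were removed (Scrublet in scanpy 1.11.5); edgeR 4.0.16 gave TMM factors; Python 3.11.15 and scipy 1.17.1 were used. Ratio code was tested on simulated data. The rule, lists and comparisons were chosen with earlier results of these data known. Alternatives are described in the closing section. Some results for single genes are not reported here.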

Additional observations from a re-analysis of the deposited data

Results flagged for a closer look

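Mgl2, a galactose-type lectin gene of macrophages, was listed for the wt library alone and so entered no ratio. It had 47 UMIs in the 24 wt Cd74-high barcodes (330.4 CPM), against 4.03 CPM in the wt barcodes outside the C1q-positive sets. It was singled out as a signal in a gene that the comparisons do not use. No value for GlaKO can be given, since a gene that is not listed is not the same as a count of 0. Genes with opposite genotype ratios in P2ry12/Gpr34-low and P2ry12/Gpr34-high barcodes were also looked for among 40 genes, and none met the limits, but this difference was not tested.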

How the results depend on the processing

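No paired analysis was possible because each genotype had 1 library. Alternatives with border markers (Mrc1, Pf4 or Ms4a7) and the thinning to 4000 UMIs were chosen after seeing the data. Of the shares and counts of calls, 116 values under an alternative stayed within their limits and 54 moved. Of the values for single genes and lists, 813 stayed, 303 moved and 13 reversed. The causes were not tested.

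The wt barcodes numbered 3 without border markers, against 24. The P2ry12/Gpr34-high share of wt barcodes was 9.09% with all thresholds scaled to 5000 UMIs, and 12.5% both with a minimum of 5 and with that minimum scaled, against 29.2%. The Cd74-high share of wt P2ry12/Gpr34-high barcodes was 0.446% with scaled thresholds and 0.461% without border markers, against 1.57%.

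Counts of genes moved with several settings. GlaKO over wt, all Cd74-high barcodes (180 higher, 77 lower) gave 1131 and 563 at a minimum of 20, 27 and 15 at 500, 33 and 30 thinned to 2000 UMIs, and 27 and 22 among border-marked barcodes. P2ry12/Gpr34-low (59 and 37) gave 332 and 229, 9 and 8, and 6 and 7 under the first 3 of these, and 27 higher without the top barcode of each gene. P2ry12/Gpr34-high (142 and 67) gave 890 and 517, 20 and 7, and 29 and 11, then 232 and 15 without the top barcode, with 35 lower by TMM, 37 by median-of-ratios and 33 with Cd74 of at least 20. P2ry12/Gpr34-low over high (8 and 11) gave 29 and 39, 5 and 1, and 4 and 1, with 6 lower by TMM, 5 by median-of-ratios, 2 without the top barcode, 7 for sums of 0 against at least 5, and 0 with Cd74 of at least 20. Cd74-high over Cd74-low (64 and 220) gave 431 and 334, 17 and 17, and 32 and 65, then 15 and 555 without the top barcode, with 107 lower for Cd74 of at least 20 against under 5, 95 with scaled thresholds and 93 without border markers.

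Among border-marked barcodes, the GlaKO over wt median reversed to -0.14 for homeostatic and 0.36 for class II genes, and P2ry13 to -0.31. For P2ry12/Gpr34-low over high in wt, a Cd74 minimum of 20 gave 0.41 for the homeostatic median and 0.37 for Cst3. For Cd74-high over Cd74-low in wt, the class II median was -0.39 without border markers (2 genes), and the chemokine median -0.00196 without the top barcode. The interferon median of that comparison was -0.92 at a minimum count of 500, which is the value of Irf1 alone. There, without border markers, H2-DMa was at -0.91, H2-M3 at -0.38 and Psmb9 at -0.24, and Irf1 was at 0.17 for Cd74 of at least 20 against under 5 and 0.26 with scaled thresholds. The 7 wt barcodes limit every wt value of this comparison.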
